A study of Mus musculus with 6 samples.

Results

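The 39 genes described here encode the laminin chains, the nidogens and the integrin subunits that hold cells to the basement membrane. They were taken from the 59485 genes of the deposited expression table by symbol, which gave 26 integrin subunits, 11 laminin chains and 2 nidogens. The table joins *Itga1* with *Pelo* under a single entry, so the reads of this pair cannot be separated. RNA was sequenced from whole sciatic nerves at postnatal day 4 (P4), with 3 wild-type control animals and 3 mutants of genotype Ht-PA-Cre; Adar1fl/fl;R26R, each animal giving 1 library. The Ht-PA-Cre transgene, driven by the promoter of human tissue plasminogen, removes the floxed alleles of *Adar* (which encodes ADAR1, an RNA-editing enzyme) in neural crest (NC) cells, and R26R is a YFP tracer of these cells. Animals called wild-type in the paper lacked the Cre transgene and carried R26R with 1 or 2 floxed *Adar* alleles. NC cells give rise to the Schwann cells (SCs) of the nerve, while blood vessels, blood cells and other cells outside the NC keep the gene. The comparison asked how the transcripts of these matrix and receptor genes differed between the genotypes at P4.

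Each myelinating or non-myelinating SC is wrapped in its own basement membrane, a sheet of laminin and collagen IV networks tied together by nidogens and perlecan. A laminin is a trimer of an alpha, a beta and a gamma chain, and laminin-211 (*Lama2*, *Lamb1*, *Lamc1*) is the major form around SCs. SCs need laminin to sort axons and to myelinate, and they bind it through integrins, which are pairs of an alpha and a beta subunit, and through dystroglycan. Other integrins bind collagens, fibronectin and further proteins with an RGD motif, tenascin-C, or counter-receptors on other cells.

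Values are read counts divided by the size factor of the library, called normalised read counts below, and log2 fold changes are mutant-labelled minus control-labelled on the log2(value + 1) scale, a scale that shrinks the fold changes of low genes. The libraries held 50938349 to 78250094 reads on genes. *Adar*, the targeted gene, had normalised read counts of 1602, 2066 and 1133 across the control-labelled libraries, against 11768, 9311 and 9773 across the mutant-labelled ones. With limma its log2 fold change was 2.72 ± 0.20 (SE, adjusted p = 4.10e-05). Values are given here and below in the order of replicates 1, 2 and 3. The libraries labelled as deleted thus had the higher *Adar* values, and the table has 1 value per gene, so the deleted segment cannot be told from the rest. The libraries are therefore named by their labels, and every direction given rests on these labels. The summed level of 9 SC markers was 3640950 to 4463500 in the control-labelled libraries and 109808 to 546626 in the mutant-labelled ones, and 8 of the 9 fell (adjusted p at or under 0.05 with limma). Among them, *Sox10*, a transcription factor of NC cells and SCs, changed least, with a log2 fold change of -0.71 ± 0.16 (SE, adjusted p = 0.00874), while *Ngfr* did not pass the test at -0.00223. Summed markers of skeletal muscle, which borders the nerve, were 5559.8 to 29198 in the control-labelled libraries and 36289.9 to 275468 in the mutant-labelled ones. In bulk tissue, fewer cells of a type and less RNA per cell cannot be told apart.

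The chains of laminin-211 and the laminin receptor subunits *Itga6* and *Itgb4* were lower in the mutant-labelled libraries. The laminin receptor subunits *Itga7* and *Itga3* were higher. So were *Itga5* and *Itgav*, alpha subunits of fibronectin receptors, *Lama5* and the low-level chain *Lamb3*. *Lama2* was 3.97-fold, *Lamb1* 3.26-fold and *Itgb4* 3.10-fold lower by the ratio of means. *Itgb1*, the beta subunit that most of these receptors share, had a 95% interval of its log2 fold change of -0.23 to 0.14, and the interval of *Nid1* was -0.14 to 0.27. Of the 39 genes, 38 were tested. *Itgad*, which had 0 to 8 reads per library, was below the minimum mean of 10, and *Itgb6* passed this minimum only through the mutant-labelled group, where it was high. It is in the counts of higher members, and its place there rests on that filter. *Lama2*, *Itga9* and *Itgad* overlap 3 unnamed entries each on the same strand, *Lama4*, *Lamb3*, *Itga1* and *Itgb6* overlap 2 each, and *Lama3*, *Itga4*, *Itga8*, *Itgb5* and *Itgb8* overlap 1 each, so reads of these loci could be split by the counting.

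With limma, 8 members were higher and 8 lower with a 2-fold or larger change and an unadjusted p of 0.05 or less (the threshold). Of all 25802 tested genes, 13.9% passed it as higher and 10.4% as lower. The split depended on the scaling: with every library set to the same total, 13 members were higher and 7 lower (background 16.4% and 8.40%). With the same 75th percentile 8 were higher and 10 lower, and the median log2 fold change over all tested genes was -0.03. The share of all tested genes past the threshold was not computed for that scaling, so its split cannot be set against a background. At an adjusted p at or under 0.05, 12 members were higher and 8 lower, and the background was 19.0% and 16.0%. All 3 control-labelled values lay below all 3 mutant-labelled ones for 13 members and above them for 11, and the background was 25.9% and 23.3%. The groups overlapped for the other 14. Of the members, 14 met both criteria and 16 met neither. The median log2 fold change was 0.04 over the members and 0.03 over all tested genes. It was 0.44 over the 25 tested integrin subunits, of which 5 passed the threshold as higher and 4 as lower, and -0.22 over the 11 laminin chains. In the text, a gene rose or fell where its adjusted p was at or under 0.05.

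**Figure D1:**
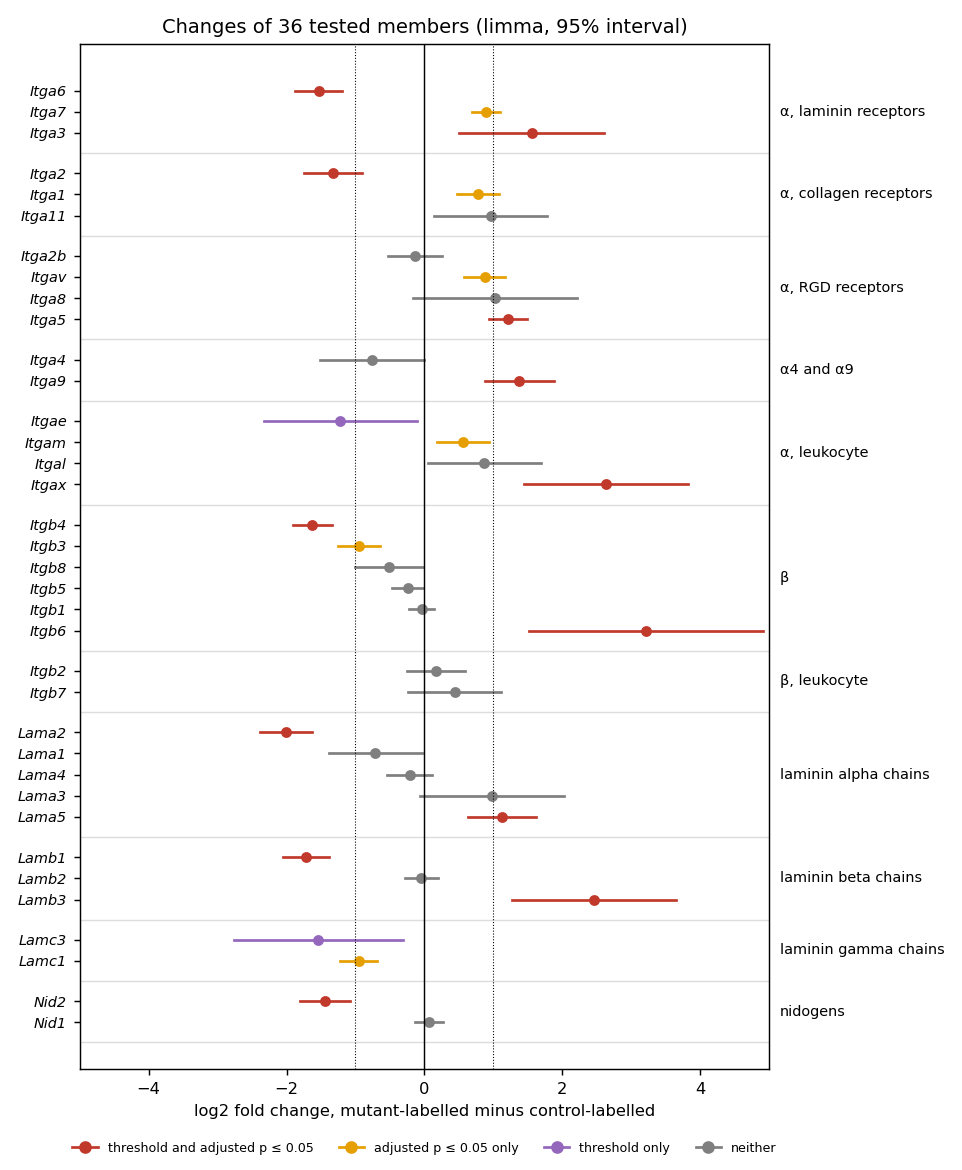
Log2 fold change (horizontal axis, mutant-labelled minus control-labelled) of 36 of the tested members with its 95% interval, grouped by role, with dotted lines at the 2-fold limits and colours for the criteria that each gene met. Both directions occur within most groups: *Itga6* lies at -1.53 and *Itga7* at 0.89, and *Lama2* lies at -2.01 and *Lama5* at 1.12.

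All 3 chains of laminin-211 fell. *Lama2* (GSMG0003923, chromosome 10, 26981288 to 27617031, mm10), the alpha2 chain whose loss causes a muscular dystrophy with defective peripheral myelin, had normalised read counts of 45123, 54263 and 56855 across the control-labelled libraries, against 16582, 11017 and 11745 across the mutant-labelled ones. Every mutant-labelled value lay below the lowest control-labelled one, and mutant-labelled replicate 1 was the highest of its group. The log2 fold change was -2.01 ± 0.16 (SE, adjusted p = 5.71e-05). *Lamb1* (GSMG0007935, chromosome 12, 31265292 to 31329644), the beta1 chain, had normalised read counts of 137689, 157719 and 163501 across the control-labelled libraries, against 57423, 43276 and 40104 across the mutant-labelled ones. The groups were again separate with mutant-labelled replicate 1 nearest to the controls, and the log2 fold change was -1.72 ± 0.14 (SE, adjusted p = 6.88e-05). *Lamc1* (GSMG0002234, chromosome 1, 153218922 to 153332786), the gamma1 chain of most laminins, had normalised read counts of 31518, 32540.4 and 37569 across the control-labelled libraries, against 20206, 16018 and 16474 across the mutant-labelled ones. It was also separate between the groups, with a log2 fold change of -0.95 ± 0.12 (SE, adjusted p = 0.000482), which is just under the 2-fold limit.

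The promoters of *Lama2* and *Lamb1* are shown because these partner chains had the largest falls among the laminins. Each is the 250 bases before the RefSeq start (GRCm38.p6), 5′ to 3′ on the strand of the gene, chr10:27616943-27617192 on the minus strand for *Lama2* and chr12:31265043-31265292 on the plus strand for *Lamb1*. Capitals mark matches, on either strand, to 6 motifs: AP-1 (TGANTCA), EGR (GCGNGGGCG), TEAD (GGAATG), SOX (ACAAAG), an ISRE core (GAAANNGAA) and GAS (TTCNNNGAA).
Lama2: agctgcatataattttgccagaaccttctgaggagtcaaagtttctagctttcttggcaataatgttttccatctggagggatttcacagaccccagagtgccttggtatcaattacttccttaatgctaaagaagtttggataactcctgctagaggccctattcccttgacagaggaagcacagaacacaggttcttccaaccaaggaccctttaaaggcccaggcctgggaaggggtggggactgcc
Lamb1: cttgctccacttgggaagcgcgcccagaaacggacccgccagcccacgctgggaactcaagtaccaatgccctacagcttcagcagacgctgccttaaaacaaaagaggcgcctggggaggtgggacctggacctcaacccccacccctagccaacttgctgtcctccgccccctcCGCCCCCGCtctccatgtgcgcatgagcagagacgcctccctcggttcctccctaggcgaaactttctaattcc
The *Lamb1* window held 1 EGR match, on the reverse strand, starting 74 bases before the start. EGR factors include Egr2, a regulator of myelination, and 4.70% of all 32851 promoters held this motif. The *Lama2* window held none of the 6 motifs, which says only that these letters do not occur in it.

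Of the other alpha chains, *Lama5* rose. *Lama4* (GSMG0002884, chromosome 10, 38965513 to 39110188), the alpha4 chain of laminin-411 in nerve and vessel basement membranes, had normalised read counts of 10781, 9226 and 8209 across the control-labelled libraries, against 8521, 6740.4 and 9088 across the mutant-labelled ones. Its groups overlapped, with a log2 fold change of -0.22 ± 0.14 (SE, adjusted p = 0.274). *Lama5* (GSMG0024007, chromosome 2, 180176374 to 180225859), the alpha5 chain of laminin-511 in vessel walls and other basement membranes, had normalised read counts of 928, 887 and 824 across the control-labelled libraries, against 1750.1, 2733 and 1462 across the mutant-labelled ones. All mutant-labelled values were above the controls, replicate 2 by the most, and the log2 fold change was 1.12 ± 0.21 (SE, adjusted p = 0.00446), or 0.86 without mutant-labelled replicate 2. Summed pericyte and smooth muscle markers, of which 1 of 6 (*Tagln*) rose, were 25311 to 50111 in the control-labelled libraries and 33865 to 87142 in the mutant-labelled ones, and mutant-labelled replicate 2 was again the highest. Summed endothelial markers, of which 3 of 8 rose (*Kdr*, *Flt1* and *Emcn*), were 15666 to 23862 in the control-labelled libraries and 22368 to 30381 in the mutant-labelled ones. Their part in the rise of *Lama5* was not tested.

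*Lama1*, an alpha chain of embryonic and epithelial basement membranes, ranged from 212 to 348 in the control-labelled libraries and 132 to 236 in the mutant-labelled ones, with overlapping groups and a log2 fold change of -0.72 (adjusted p = 0.0934). *Lama3*, the alpha chain of laminin-332, ranged from 61.4 to 184.3 in the control-labelled libraries and 124 to 255 in the mutant-labelled ones, also overlapping, at 0.98 (adjusted p = 0.134). Without control-labelled replicate 1, their adjusted p-values were 0.0490 and 0.0301.

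*Lamb2* (GSMG0040089, chromosome 9, 108479862 to 108490530), the beta2 chain that replaces beta1 in laminin-221 and laminin-421, had normalised read counts of 26176, 28020.0 and 24793 across the control-labelled libraries, against 27526, 26963 and 22268 across the mutant-labelled ones. The groups overlapped almost fully, and the log2 fold change was -0.05 ± 0.11 (SE, adjusted p = 0.767), a 95% interval of -0.29 to 0.20. *Lamc3*, the gamma3 chain, ranged from 265 to 379 in the control-labelled libraries and 39.6 to 196 in the mutant-labelled ones. It passed the threshold with separate groups at a log2 fold change of -1.54 (adjusted p = 0.0548), so its adjusted p missed 0.05. The value was -0.86 without mutant-labelled replicate 3, the lowest library, and the unadjusted p was 0.069 without control-labelled replicate 1.

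Of the nidogens, *Nid2* fell. *Nid2* (GSMG0011263, chromosome 14, 19751257 to 19811787) had normalised read counts of 42229, 55109 and 51437 across the control-labelled libraries, against 22280.0, 18048 and 14915 across the mutant-labelled ones. Every mutant-labelled value was below the controls, a 2.69-fold difference of means and a log2 fold change of -1.44 ± 0.16 (SE, adjusted p = 0.000278). *Nid1* (GSMG0009442, chromosome 13, 13437602 to 13512275), which also binds the laminin gamma1 chain, had normalised read counts of 39362, 37238 and 37473 across the control-labelled libraries, against 41291, 36356 and 41983 across the mutant-labelled ones. Its groups overlapped at 0.07 ± 0.09 (SE, adjusted p = 0.603).

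Levels of different genes were compared per kb of merged GENCODE exons, an approximation because the counted regions are not listed (mean ± SD, n = 3). In the control-labelled libraries *Lamb1* was the highest laminin chain at 15425 ± 1366 normalised reads per kb. It was followed by *Lamb2* at 4329 ± 266 and *Lamc1* at 4095 ± 391.6, which did not differ beyond their spread, then by *Lama2* at 3188 ± 377 and *Lama4* at 779 ± 107. In the mutant-labelled libraries *Lamb1* at 4733 ± 929.8 and *Lamb2* at 4207 ± 475 per kb lay within their spread of each other, and so did *Lama2* at 803 ± 185.1 and *Lama4* at 673 ± 101. *Nid2* was above *Nid1* in the control-labelled libraries, at 9585 ± 1282 against 5477 ± 168 per kb, and below it in the mutant-labelled ones, at 3559 ± 714 against 5743 ± 442.

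**Figure D2:**
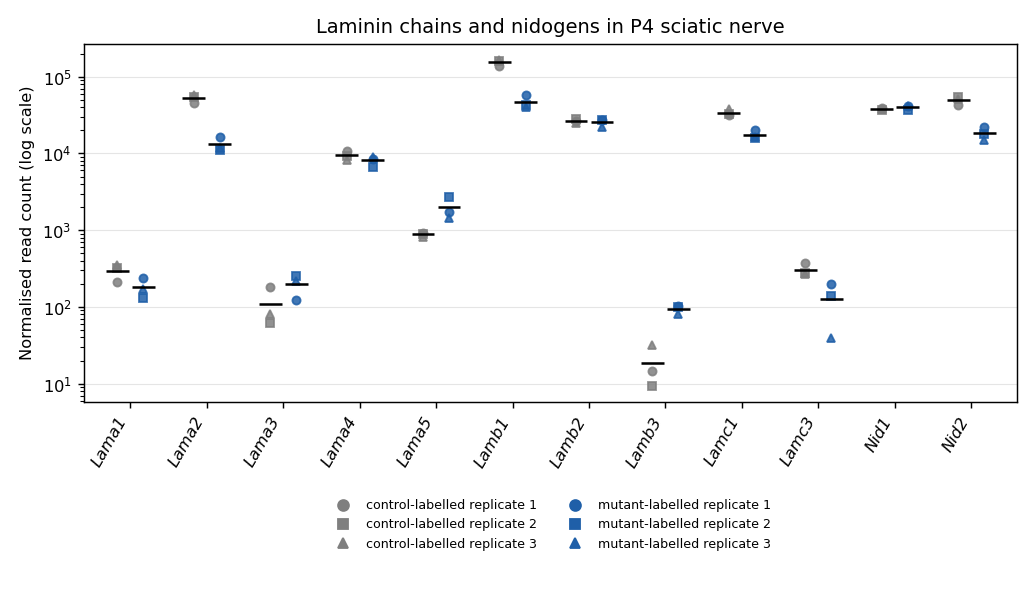
Normalised read counts (log scale) of laminin chains and the nidogens in each library, with grey symbols for control-labelled and blue for mutant-labelled replicates and a bar at each mean. *Lama2*, *Lamb1*, *Lamc1* and *Nid2* lie lower in blue without overlap, *Lamb2*, *Lama4* and *Nid1* overlap, and *Lamb3* lies higher in blue at levels of at most 104.

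*Lamb3*, the beta chain of laminin-332, the laminin of epithelia such as the epidermis, rose from a very low level. *Lamb3* (GSMG0001252, chromosome 1, 193207724 to 193343878) had normalised read counts of 14.4, 9.45 and 31.7 across the control-labelled libraries, against 104, 98.4 and 82.1 across the mutant-labelled ones. The groups were separate, with a log2 fold change of 2.45 ± 0.52 (SE, adjusted p = 0.00725). *Itgb6* (GSMG0022858, chromosome 2, 60598292 to 60722645), an epithelial subunit that pairs with alphaV and releases active TGF-beta, had normalised read counts of 6.66, 3.78 and 5.07 across the control-labelled libraries, against 96.0, 19.3 and 89.0 across the mutant-labelled ones. The control-labelled values rest on 4 to 6 reads. As the gene was tested only because of its mutant-labelled level, its fold is given without a test, as a log2 fold change of 3.21, or 3.95 without mutant-labelled replicate 2 and 2.16 with a pseudocount of 10.

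Summed epithelial markers were 208 to 292 in the control-labelled libraries and 258 to 490.1 in the mutant-labelled ones, and none of the 6 had an adjusted p at or under 0.05, while *Krt5* and *Krt14* passed the threshold as higher, at 2.84 and 3.24. *Krt5* and *Krt14*, which define basal keratinocytes, were at most 20.4 and 53.1, and each was at 0 in 2 of the 3 control-labelled libraries. Both reached the minimum mean of 10 only through the mutant-labelled libraries, and the groups of *Krt5* were separate and those of *Krt14* overlapped. The part of epithelial cells in the values of *Lamb3* and *Itgb6* was not tested.

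Of the laminin-binding alpha subunits, *Itga6* fell while *Itga7* and *Itga3* rose. *Itga6* (GSMG0021209, chromosome 2, 71786928 to 71858427) forms alpha6beta1 on SC precursors and immature SCs and alpha6beta4 on myelinating SCs. It had normalised read counts of 35746, 35835 and 34839 across the control-labelled libraries, against 14606, 9566 and 13139 across the mutant-labelled ones. The control-labelled values were tight and all above the mutant-labelled ones, and the log2 fold change was -1.53 ± 0.15 (SE, adjusted p = 0.000132). *Itgb4* (GSMG0006120, chromosome 11, 115974708 to 116008411), which pairs only with alpha6 and lies on the outer face of myelinating SCs, had normalised read counts of 7609.9, 10342 and 9575 across the control-labelled libraries, against 3089, 2957 and 2821 across the mutant-labelled ones. The groups were separate, with a log2 fold change of -1.62 ± 0.12 (SE, adjusted p = 4.35e-05). The subunit is also made by perineurial cells, of whose 4 markers 1 (*Cldn1*) rose, with summed levels of 20104 to 24458 in the control-labelled libraries and 24706 to 30382 in the mutant-labelled ones. Of the other markers, *Slc2a1* was at -0.27 without passing the test, and the part of these cells in the *Itgb4* values was not tested.

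*Itga7* (GSMG0003713, chromosome 10, 128933813 to 128958282), which forms the alpha7beta1 laminin receptor of SCs and muscle, had normalised read counts of 6595, 7420.3 and 7122 across the control-labelled libraries, against 13905, 12579 and 12757 across the mutant-labelled ones. The groups were separate, and the log2 fold change was 0.89 ± 0.09 (SE, adjusted p = 0.000159), under the 2-fold limit. Of 7 skeletal muscle markers, 5 rose, and their summed levels were 5559.8 to 29198 in the control-labelled libraries and 36289.9 to 275468 in the mutant-labelled ones. The part of muscle in the *Itga7* values was not tested.

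*Itga3* (GSMG0007263, chromosome 11, 95044476 to 95076811), which forms alpha3beta1, had normalised read counts of 149, 90.7 and 40.6 across the control-labelled libraries, against 256, 298 and 187.9 across the mutant-labelled ones. The groups were separate with a wide control-labelled spread, and the log2 fold change was 1.56 ± 0.46 (SE, adjusted p = 0.0297). Its adjusted p lay between 0.0541 and 0.0972 when any library other than control-labelled replicate 1 was left out. *Itgb1* (GSMG0038026, chromosome 8, 128685654 to 128733579), the common beta1 subunit, had normalised read counts of 42017, 39502 and 38446 across the control-labelled libraries, against 38319.8, 38744 and 39334 across the mutant-labelled ones. These overlapped, with a log2 fold change of -0.04 ± 0.08 (SE, adjusted p = 0.712). In the control-labelled libraries *Itgb1* was at 9799 ± 449.5, *Itga6* at 3931 ± 61.1 and *Itgb4* at 1308 ± 201 normalised reads per kb. In the mutant-labelled libraries *Itgb1* was at 9507 ± 125, *Itga6* at 1378 ± 287 and *Itga7* at 1616 ± 88.9 per kb, and the latter pair did not differ beyond its spread.

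Since the fall of these genes went along with lower SC markers, each value was also set relative to *Sox10* in its own library, a scale chosen after the data were seen. On it the log2 difference was -1.29 for *Lama2*, -1.004 for *Lamb1*, -0.91 for *Itgb4*, -0.82 for *Itga6*, -0.73 for *Nid2*, -0.82 for *Lamc3* and -0.61 for *Itga2*. It was -0.24 for *Lamc1* and -0.23 for *Itgb3*. *Sox10* itself had a log2 fold change of -0.71, so the scale raised the log2 difference of every gene by the same amount. *Ngfr*, another SC marker, was at -0.00223, so the size of this shift depended on the marker chosen. Genes with little change, *Itgb1* at 0.67, *Lamb2* at 0.67 and *Nid1* at 0.78, thus lay above the control-labelled level by construction. *Itga5* was at 1.92, *Itga7* at 1.61 and *Lama5* at 1.84 relative to *Sox10*. No test across genes was made on this scale.

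Ratios of subunits that share a partner or a place in the trimer do not depend on size factors. The log2 ratio of *Itgb4* to *Itgb1* was -2.46, -1.93 and -2.01 across the control-labelled libraries, against -3.63, -3.71 and -3.80 across the mutant-labelled ones. It averaged -2.13 ± 0.29 in the control-labelled libraries and -3.71 ± 0.08 in the mutant-labelled ones, a difference of -1.58 (mean ± SD, n = 3), so that the mutant-labelled ratios were all lower. The log2 ratio of *Itga7* to *Itga6* was -2.44, -2.27 and -2.29 across the control-labelled libraries, against -0.07, 0.39 and -0.04 across the mutant-labelled ones, a difference of 2.43. The log2 ratio of *Itga5*, the fibronectin receptor subunit, to *Itga6* averaged -2.77 ± 0.17 in the control-labelled libraries and -0.02 ± 0.42 in the mutant-labelled ones, a difference of 2.74. The log2 ratio of *Lama4* to *Lama2* averaged -2.47 ± 0.37 in the control-labelled libraries and -0.68 ± 0.30 in the mutant-labelled ones, a difference of 1.79. The log2 ratio of *Lamb2* to *Lamb1* averaged -2.54 ± 0.17 in the control-labelled libraries and -0.86 ± 0.19 in the mutant-labelled ones, a difference of 1.67. In all 5 pairs the groups were separate, with an exact two-sided permutation p of 0.1, which is the smallest that 3 against 3 libraries allow and stays 0.1 after Benjamini-Hochberg adjustment over the 5 pairs. The ratios compare a change within a library, not absolute amounts of the genes.

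**Figure D3:**
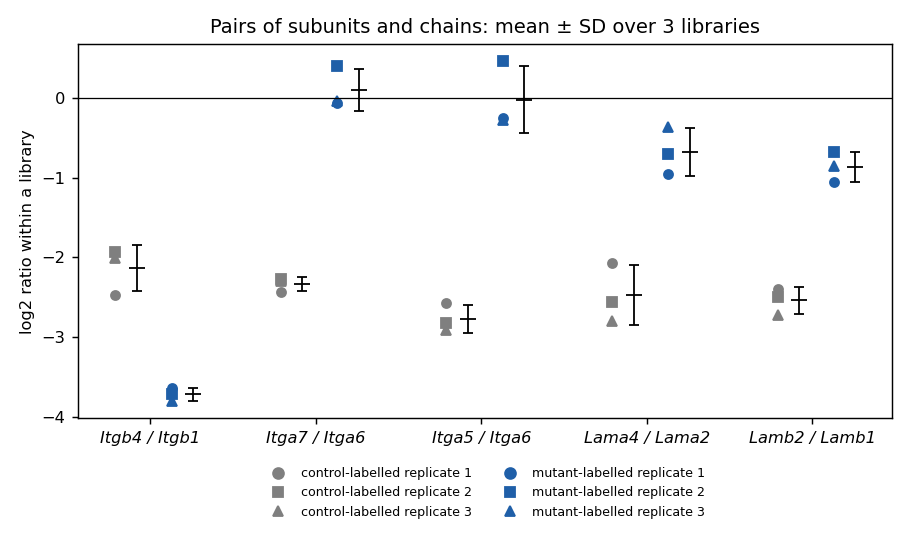
Log2 ratio of the normalised read counts of 5 pairs of genes within each library (vertical axis), with symbols for the 3 control-labelled (grey) and 3 mutant-labelled (blue) replicates and the mean ± SD beside them. The blue points lie below the grey ones for *Itgb4* / *Itgb1* and above them for the other 4 pairs.

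Of the 4 alpha subunits of receptors for fibronectin and other RGD ligands, *Itga5* and *Itgav* rose. *Itga5* (GSMG0014582, chromosome 15, 103344289 to 103366791), the alpha subunit of the main fibronectin receptor, had normalised read counts of 6005, 5089 and 4627 across the control-labelled libraries, against 12253, 13162 and 10811 across the mutant-labelled ones. All mutant-labelled values were above the controls, a 2.30-fold difference of means and a log2 fold change of 1.21 ± 0.12 (SE, adjusted p = 0.000174). *Itgav* (GSMG0021305, chromosome 2, 83724397 to 83806917), which pairs with beta1, beta3, beta5, beta6 or beta8, had normalised read counts of 2782, 2497 and 2477 across the control-labelled libraries, against 4519, 4117 and 5671 across the mutant-labelled ones. It was separate too, with mutant-labelled replicate 3 the highest and a log2 fold change of 0.87 ± 0.13 (SE, adjusted p = 0.00137). *Itga8*, an RGD receptor of smooth muscle and mesenchyme, ranged from 30.4 to 86.6 in the control-labelled libraries and 63.3 to 178 in the mutant-labelled ones and did not pass the test at 1.02 (adjusted p = 0.162). Of the 6 pericyte and smooth muscle markers, 1 rose, with summed levels of 25311 to 50111 in the control-labelled libraries and 33865 to 87142 in the mutant-labelled ones, and their part in the *Itga8* values was not tested.

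The promoters of *Itga5* and *Itgav* are shown because both rose, at chr15:103366792-103367041 (minus strand) and chr2:83724147-83724396 (plus strand) of GRCm38.p6, with the same layout and motifs as for the laminins.
Itga5: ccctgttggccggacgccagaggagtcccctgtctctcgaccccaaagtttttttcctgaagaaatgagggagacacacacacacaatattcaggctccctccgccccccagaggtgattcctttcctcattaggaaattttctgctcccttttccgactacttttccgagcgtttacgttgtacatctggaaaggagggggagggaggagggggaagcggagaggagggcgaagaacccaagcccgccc
Itgav: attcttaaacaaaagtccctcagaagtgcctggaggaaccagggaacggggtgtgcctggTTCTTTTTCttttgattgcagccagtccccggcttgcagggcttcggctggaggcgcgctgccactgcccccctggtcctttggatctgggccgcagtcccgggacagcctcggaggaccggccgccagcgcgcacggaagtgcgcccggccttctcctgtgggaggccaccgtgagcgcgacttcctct
The *Itgav* window held 1 ISRE core match, the reverse complement of a motif of interferon-activated factors, starting 190 bases before the start, and 7.13% of all promoters held this core. None of the 6 motifs occurred in the *Itga5* window.

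Of the further beta partners of *Itgav*, *Itgb3* fell. *Itgb3*, the beta3 subunit, ranged from 3932 to 4467 in the control-labelled libraries and 1866 to 2548 in the mutant-labelled ones and fell by 0.95 on the log2 scale (SE 0.13, adjusted p = 0.000832). *Itgb5* ranged from 3567 to 4029.7 in the control-labelled libraries and 3024 to 3398 in the mutant-labelled ones, separate but close, at -0.24 (adjusted p = 0.0910). *Itgb8* (GSMG0009381, chromosome 12, 119159997 to 119238801), which activates TGF-beta on the surface of other cells, had normalised read counts of 1736, 1514 and 1528 across the control-labelled libraries, against 1097, 817 and 1539 across the mutant-labelled ones. Mutant-labelled replicate 3 lay within the control-labelled range, and the log2 fold change was -0.51 ± 0.21 (SE, adjusted p = 0.0955), or -0.75 (adjusted p = 0.0170) without that library. *Itga2b*, the platelet partner of *Itgb3*, ranged from 345 to 394 in the control-labelled libraries and 309 to 369.9 in the mutant-labelled ones and did not pass the test at -0.14 (adjusted p = 0.561). Summed megakaryocyte and platelet markers were 1352 to 1729 in the control-labelled libraries and 578 to 819.9 in the mutant-labelled ones. Most of the control-labelled sum was *Pf4*, at 1059 to 1451 there and 350 to 404 in the mutant-labelled libraries. Only *Pf4* fell (-1.77), and the groups overlapped for the other markers of this list. The part of these cells in the fall of *Itgb3* was not tested.

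Among the collagen-binding alpha subunits, which all pair with beta1, *Itga2* fell and *Itga1* rose. *Itga2* (GSMG0011161, chromosome 13, 114835824 to 114932102) had normalised read counts of 945, 739 and 743 across the control-labelled libraries, against 363, 263 and 342 across the mutant-labelled ones. All mutant-labelled values were below the controls, with a log2 fold change of -1.33 ± 0.19 (SE, adjusted p = 0.000953). *Itga1*, whose entry includes *Pelo*, ranged from 3461 to 4525 in the control-labelled libraries and 5824 to 7352 in the mutant-labelled ones and rose by 0.77 ± 0.13 (SE, adjusted p = 0.00263), and which of the joined genes carried the rise cannot be told apart. *Itga11*, a collagen I receptor of fibroblasts, ranged from 183.7 to 504 in the control-labelled libraries and 447 to 647 in the mutant-labelled ones at 0.96 (adjusted p = 0.0694). Control-labelled replicate 1 was far above the other two there, and without it the adjusted p was 0.00465. Of the fibroblast markers listed, *Col1a1* and *Col3a1*, 2 ligands of these receptors, were lower at -1.10 and -1.22, while *Pdgfra* and *Dcn* were at 0.16 and 0.00490 without passing the test. The sum over all 5 fibroblast markers, of which 2 fell, was 1777660 to 2106500 in the control-labelled libraries and 718507 to 1061210 in the mutant-labelled ones, and its part in the values of these subunits was not tested.

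*Itga9* (GSMG0040209, chromosome 9, 118606709 to 118901003), a receptor for tenascin-C, osteopontin and VCAM1, had normalised read counts of 459.7, 481 and 278 across the control-labelled libraries, against 938, 1072 and 1075 across the mutant-labelled ones. The groups were separate, with a log2 fold change of 1.38 ± 0.22 (SE, adjusted p = 0.00184). *Itga4*, which binds VCAM1 and fibronectin on leukocytes and NC cells, ranged from 137 to 268 in the control-labelled libraries and 96.9 to 152 in the mutant-labelled ones with overlap, at -0.76 (adjusted p = 0.107). Without control-labelled replicate 3, the lowest of its group, its value was -1.06 (adjusted p = 0.0381).

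**Figure D4:**
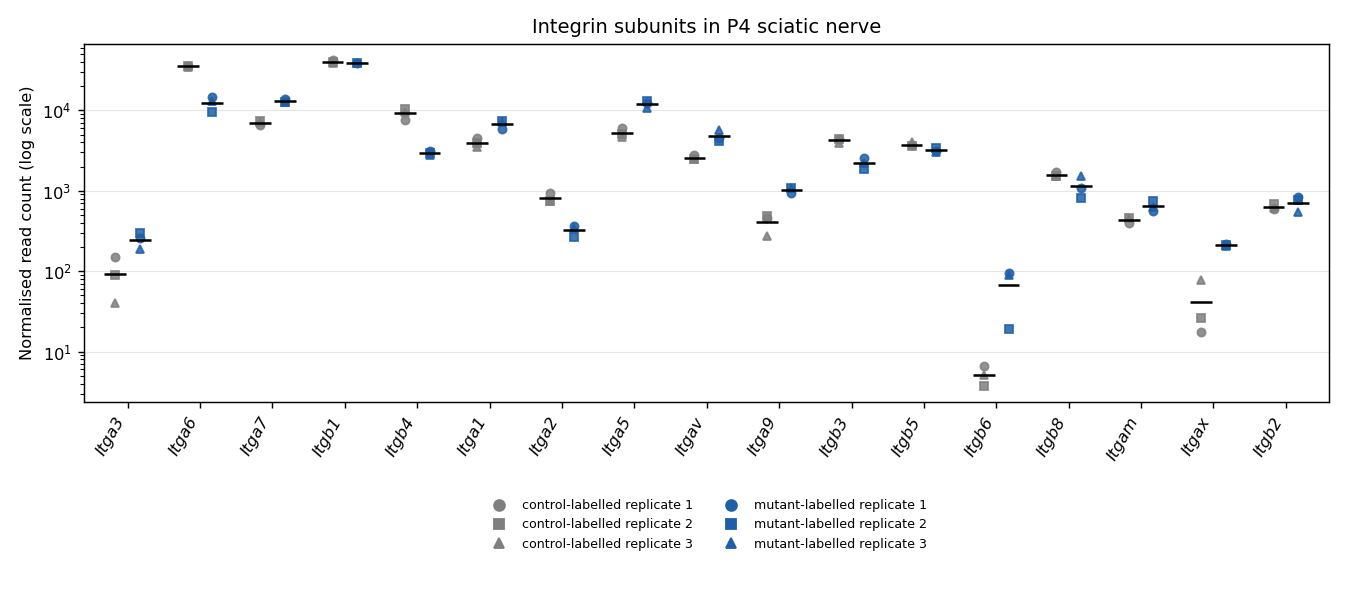
Normalised read counts (log scale) of 17 integrin subunits in each library, with grey symbols for control-labelled and blue for mutant-labelled replicates and a bar at each mean. *Itga6*, *Itgb4*, *Itga2* and *Itgb3* lie lower in blue and *Itga7*, *Itga5*, *Itgav*, *Itga9* and *Itgax* higher, without overlap, while *Itgb1* overlaps.

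Of the leukocyte integrins, *Itgax* and *Itgam* rose. *Itgax* (GSMG0035218, chromosome 7, 128129546 to 128150657), the CD11c subunit of dendritic cells and some macrophages, had normalised read counts of 17.8, 26.5 and 78.6 across the control-labelled libraries, against 218, 210.3 and 209 across the mutant-labelled ones. The mutant-labelled values were close together and above the controls, of which replicate 3 was the highest. The log2 fold change was 2.63 ± 0.52 (SE, adjusted p = 0.00519), and 3.23 without control-labelled replicate 3. *Itgam*, the CD11b subunit of macrophages and neutrophils, ranged from 401 to 460.2 in the control-labelled libraries and 567 to 755 in the mutant-labelled ones, separate between the groups, at 0.56 ± 0.16 (SE, adjusted p = 0.0306). Its adjusted p was 0.0641 to 0.0839 when any library other than mutant-labelled replicate 1 was left out. *Itgb2*, the CD18 partner of both, ranged from 591 to 692 in the control-labelled libraries and 548 to 828 in the mutant-labelled ones and overlapped, at 0.16 (adjusted p = 0.529).

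*Itgal*, the LFA-1 subunit of T and NK cells, ranged from 113 to 284 in the control-labelled libraries and 239 to 358 in the mutant-labelled ones at 0.87 (adjusted p = 0.0934), and without control-labelled replicate 2, the highest control, its value was 1.26 (adjusted p = 0.0167). *Itgb7*, a lymphocyte subunit, ranged from 118 to 138 in the control-labelled libraries and 145 to 256 in the mutant-labelled ones at 0.44 (adjusted p = 0.282). *Itgae*, the CD103 partner of *Itgb7*, ranged from 44.4 to 101 in the control-labelled libraries and 21.2 to 34.6 in the mutant-labelled ones and passed the threshold as lower at -1.22 (adjusted p = 0.0856), but missed it without control-labelled replicate 3 (-0.86), mutant-labelled replicate 1 or mutant-labelled replicate 2. *Itgae* was low throughout, with as few as 22 reads.

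Summed macrophage and monocyte markers were 16268 to 20823 in the control-labelled libraries and 15485 to 18729 in the mutant-labelled ones. Of the 9, *Aif1*, *Fcgr1* and *C1qa* rose, *Csf1r* and *Mrc1* fell, and *Adgre1*, the F4/80 antigen, was at -0.19 without passing the test. Summed T and NK cell markers were 117 to 229.9 in the control-labelled libraries and 403 to 577 in the mutant-labelled ones, and 4 of the 7 tested had a higher level at an adjusted p at or under 0.05, among them *Nkg7* (0 to 5.07 in the control-labelled libraries and 67.3 to 133 in the mutant-labelled ones). Of these 4, *Nkg7*, *Cd8a* and *Cd2* reached the minimum mean of 10 only through the mutant-labelled libraries, so their count is no independent sign of a rise. Of the 8 listed, *Cd3d* and *Cd8a* were at 0 in every control-labelled library. None of the 4 tested neutrophil markers and none of the 4 B cell markers had an adjusted p at or under 0.05. Their summed levels were 37.8 to 194 in the control-labelled libraries and 75.2 to 570.3 in the mutant-labelled ones for neutrophils, and 113 to 143 in the control-labelled libraries and 68.2 to 95.3 in the mutant-labelled ones for B cells. The part of these cells in the leukocyte integrins was not tested.

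The promoter of *Itgax*, the leukocyte subunit with the largest change, lies at chr7:128129300-128129549 (plus strand, GRCm38.p6).
Itgax: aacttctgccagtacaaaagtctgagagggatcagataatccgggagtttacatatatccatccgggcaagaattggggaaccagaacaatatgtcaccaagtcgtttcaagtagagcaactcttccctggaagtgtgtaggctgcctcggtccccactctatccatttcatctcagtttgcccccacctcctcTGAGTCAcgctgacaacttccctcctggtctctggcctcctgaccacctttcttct
It held 1 AP-1 match starting 56 bases before the start, a motif found in 6.75% of all promoters.

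The partners of these proteins were taken from 4 lists. Of 21 other basement membrane components, 3 were higher and 7 lower past the threshold, where the background was 13.9% and 10.4%, so that the share of higher genes was near the background. By the adjusted p, 4 rose and 11 fell (background 19.0% and 16.0%), and the median log2 fold change was -0.69 beside 0.03 over all tested genes. The largest falls were in *Col15a1* at -2.33, a collagen that links basement membranes to collagen fibrils, *Col4a6* at -2.09, and *Hspg2*, which encodes perlecan, at -2.07. *Col4a1* and *Col4a2*, the main collagen IV chains, fell by 0.69 each. The largest rises were in *Ntn4*, a laminin-related netrin, at 2.02, *Tinagl1* at 1.64 and *Col18a1*, the precursor of endostatin, at 1.29.

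Of 9 laminin-binding proteins other than integrins, 1 was higher and 2 lower past the threshold (background 13.9% and 10.4%), 3 rose and 3 fell (background 19.0% and 16.0%), and the median was 0.06. With so few genes, these counts say little about the list. *Dag1*, dystroglycan, fell at -1.49 ± 0.18 (SE, adjusted p = 0.000419) with limma, and *Bcam*, a receptor for the laminin alpha5 chain, at -1.18. *Sdc4*, a syndecan of focal adhesions, rose by 1.505. *Adgrg6*, a receptor that binds laminin-211 and is needed for myelination, also fell, at -0.64.

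Of 20 tested integrin ligands out of 23, 9 were higher and 2 lower past the threshold (background 13.9% and 10.4%), 10 rose and 3 fell (background 19.0% and 16.0%), and the median was 0.61. The share of lower ligands was near the background by both criteria. *Madcam1*, a ligand of alpha4beta7, was at 4.58, *Vcam1*, bound by alpha4 and alpha9 integrins, at 3.61, and *Tnc*, tenascin-C, bound by alpha9 and alphaV integrins, at 3.48. *Fn1*, fibronectin, the ligand of alpha5beta1, was at 0.28 (adjusted p = 0.268) with limma and did not pass the test. *Cdh1*, a ligand of *Itgae* that SCs use in their own junctions, fell at -2.97, and *Vtn*, vitronectin, at -1.72. *Icam4*, *Fga* and *Fgb* were below the minimum mean.

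Of 31 tested integrin-associated cytoplasmic proteins out of 32, 4 were higher and 2 lower past the threshold, beside a background of 13.9% and 10.4%. With the same total per library, 7 were higher and 1 lower (background 16.4% and 8.40%). Without mutant-labelled replicate 3, 6 were higher and 2 lower, and no background share was computed without that library. By the adjusted p, 10 rose and 7 fell (background 19.0% and 16.0%), and the median was 0.11. The largest rises were in *Actn1*, an actin cross-linker, at 1.85, *Zyx*, zyxin, at 1.30, and *Parvb*, a partner of ILK, at 1.17. *Fyn*, a kinase that acts downstream of integrins, was lower at -1.34, and *Tns3*, a tensin, at -1.05. *Ilk* at 0.11, *Tln1* (talin) at 0.11 and *Ptk2* (FAK) at 0.15 did not pass the test. *Lims1*, which encodes the ILK partner PINCH, rose by 0.43, while *Parva*, another ILK partner, and *Pxn*, which encodes paxillin, fell, at -0.50 and -0.76. *Fermt1*, the epithelial kindlin, had no reads in any library.

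**Figure D5:**
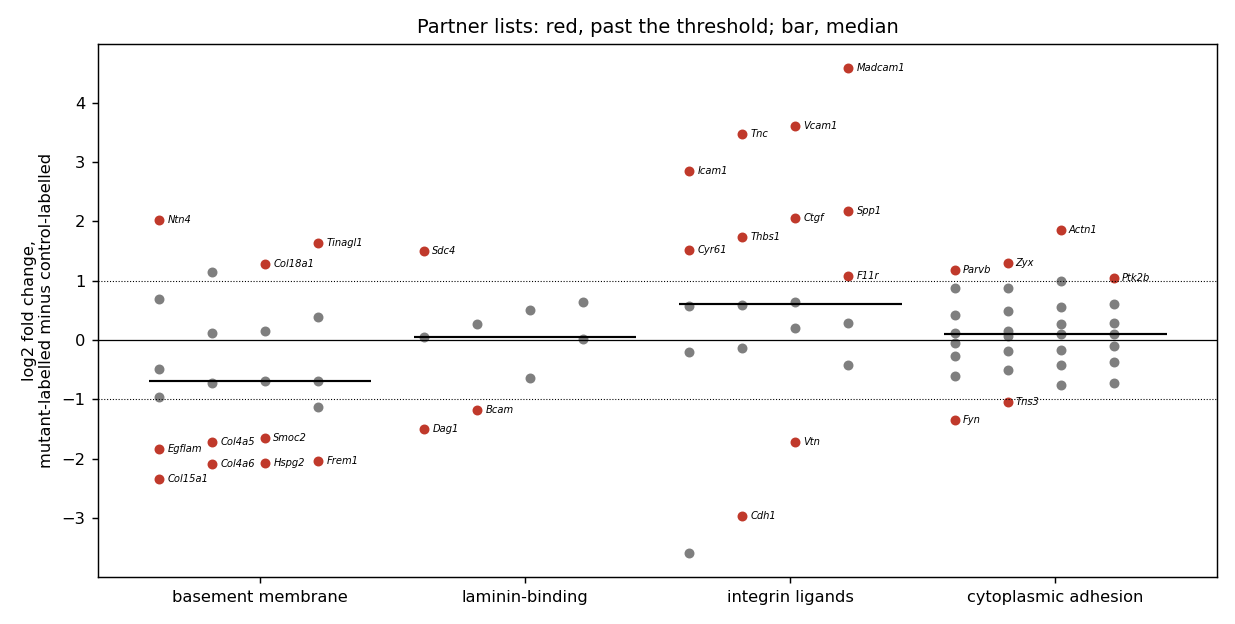
Log2 fold change (vertical axis, mutant-labelled minus control-labelled) of each tested gene in the 4 partner lists, with genes past the threshold in red with their names, the others in grey, and a bar at the median of each list. Red points lie on both sides of 0 in every list, and the lowest grey point is *Ibsp* at -3.58, which did not pass the test (adjusted p = 0.200 with limma).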

How the data were processed

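Oriented poly-A cDNA libraries of whole P4 sciatic nerves from 3 control and 3 mutant animals were sequenced as paired-end reads. The authors mapped the reads to mm10 with STAR 2.4.0, counted those on constitutive regions of FAST DB genes, and divided the counts by DESeq2 size factors. The deposited table therefore holds a signal per gene and library. Dividing by the value of a single read (0.727 to 1.27) left 100% of the values within 0.1 of a whole number in every library, and the recovered reads were used for edgeR, DESeq2 and TMM. In mutant-labelled replicate 3 a read was worth 0.989, close to 1, and its values met the same tolerance. The libraries held 50938349 to 78250094 reads on genes. Amplified reads carry no molecular identifiers, so read numbers can include copies of the same molecule and do not by themselves give the precision of a value.

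log2(value + 1) was fitted with limma (lmFit, eBayes with trend) for the 25802 genes with a mean of at least 10 in at least 1 genotype, all 6 libraries entering without covariates. The threshold, that of the study's methods, was a 2-fold or larger change with an unadjusted p of 0.05 or less. p-values were adjusted by the Benjamini-Hochberg method across the whole set of tested genes. The 5 ratios of genes within a library were compared by exact two-sided permutation tests. The fits were tested on simulated data.

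Groups and replicate numbers came from the sample labels. Members, gene lists, marker lists and ratios were chosen with earlier results of these data known. Counts and medians cover every tested member, of which 2 have no values of their own reported here. Values in all libraries are given for the members that met both criteria and for those fixed by name (*Itga6*, *Itga7*, *Itga3*, *Itgb1*, *Itgb4*, *Itgav*, *Itgb8*, *Lama2*, *Lama4*, *Lama5*, *Lamb1*, *Lamb2*, *Lamc1*, *Nid1* and *Nid2*). From each partner list, up to 3 genes with the largest rise and 3 with the largest fall past the threshold are named, and *Col4a1*, *Col4a2*, *Adgrg6*, *Fn1*, *Ibsp*, *Ilk*, *Tln1*, *Ptk2*, *Lims1*, *Parva* and *Pxn* were added after their values were seen. Alternatives were pseudocounts of 0.1 and 10, a minimum mean of 50, no filter, the same total or 75th percentile per library, TMM, eBayes without trend, edgeR, DESeq2, a block for the replicate number and leaving out each library.

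Promoters were taken from a RefSeq table (GRCm38.p6), in which 24 of the 39 members were found, and exon lengths from GENCODE annotation. *Ccn1* and *Ccn2* are listed in the table as *Cyr61* and *Ctgf*. Editing and splicing were not analysed here. Tools were limma 3.58.1, edgeR 4.0.16 and DESeq2 1.42.0 under R 4.3.3, and scipy 1.17.1, pandas 2.3.3, numpy 2.4.6 and matplotlib 3.10.9 under Python 3.11.15.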

Additional observations from a re-analysis of the deposited data

How the results depend on the processing

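Across 17 settings, the number of members past the threshold ranged from 14 to 21 around 16, and the number at an adjusted p at or under 0.05 from 18 to 22 around 20. The split of the former into higher and lower was 13 and 7 with the same total per library (background 16.4% and 8.40%), against 8 and 8 (background 13.9% and 10.4%). It was 8 and 10 with the same 75th percentile, for which no background share was computed. Of the partner lists, the cytoplasmic proteins past the threshold ranged from 5 to 8 around 6, the basement membrane components from 10 to 12 around 10 and the integrin ligands from 10 to 12 around 11, and the laminin-binding proteins stayed at 3. Of 612 single-gene values, 578 kept their direction and side of the threshold, 9 fell short of it, 20 newly passed it and 5 changed sign, and 20 of the 36 members behind these values kept both in every one of these settings. The sign changes were in members that passed no test. With every library set to the same total, *Itga2b* was at 0.0224, *Itgb1* at 0.12 and *Lamb2* at 0.12, and the median of all tested genes moved from 0.03 to 0.19. *Lamb2* was between -0.102 and 0.0510 when single libraries were left out, above 0 without mutant-labelled replicate 3, and *Nid1* at -0.00167 with the same 75th percentile. Among the members that newly passed were *Lamc1* at -1.02 with the same 75th percentile and *Itga7* at 1.06 and *Itgav* at 1.04 with the same total. With a replicate block, 16 members passed the threshold and 21 had an adjusted p at or under 0.05, *Lamc3* being the added one (adjusted p = 0.0277, limma). Same-numbered libraries did not deviate together over all genes (r of -0.06, -0.06 and 0.01), and the numbers name different animals. The cause of these differences was not tested. *Lamc3*, *Itga3*, *Itga8*, *Itgae*, *Itgax*, *Lamb3* and *Itgb6* had at most 40 reads in their lowest library, which limits the precision of their fold changes.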
